A study of Homo sapiens with 17 samples.

Results

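The human WNT ligand genes that lie in pairs on the chromosomes are *WNT1* with *WNT10B*, *WNT3* with *WNT9B*, *WNT3A* with *WNT9A*, and *WNT6* with *WNT10A*. *WNT5A* and *WNT5B*, closely related genes on separate chromosomes, were taken beside these 4 pairs. Promoter Capture Hi-C (PCHi-C) interactions, Hi-C contacts and the histone mark H3K4me1 were examined at the 10 genes in human pluripotent stem cells (PSCs) of the naive and the primed state. The deposited interaction lists mark baited HindIII fragments but carry no gene names. A fragment was therefore assigned to a gene where it overlapped the start of any GENCODE transcript of that gene or the 1000 bp upstream. This gave 6 baited fragments of 15982 in the lists, which hold a promoter of 8 of the 10 genes, and 50 interactions of 128955, with 50 partner fragments of 88413. No baited fragment was listed at a promoter of *WNT9A* or *WNT6*.

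WNT proteins are secreted, lipid-modified ligands that bind Frizzled receptors together with co-receptors of the LRP or ROR families. In the canonical branch, binding halts the destruction of β-catenin, which then acts with TCF/LEF factors in the nucleus. *WNT1*, *WNT3* and *WNT3A* are classical ligands of that branch, while *WNT5A* and *WNT5B* are best known for β-catenin-independent signalling that steers cell movement and polarity. H3K4me1 marks enhancers and the flanks of promoters.

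Naive and primed PSCs were grown from WA09/H9 NK2, an established line of human embryonic stem cells. Naive PSCs were grown on Matrigel in t2iL+PKCi medium, which contains PD0325901, CHIR99021, human LIF and Gö6983, and primed PSCs on Vitronectin in TeSR-E8 medium. CHIR99021 inhibits GSK3, the kinase that marks β-catenin for destruction, so a WNT pathway agent was present in the naive medium only, and its part in any difference cannot be told apart from that of cell state. PCHi-C, in which ligated pairs with a promoter fragment are captured from Hi-C material, was deposited as 1 list per cell type combined from 2 replicates. Hi-C was deposited for 1 library per cell type. H3K4me1 was measured by CUT&RUN, which releases and sequences DNA around an antibody-bound mark, in 2 naive and 3 primed libraries. The study calls these libraries biological replicates. Whether they came from separate cultures is not given in the sources used here, and if they did not, p-values measure the spread between these libraries only. Their depth, recovered from the steps of the values, was about 6740000 to 26600000 reads, and the first naive replicate (21800000) was deeper than the second (6740000). As a check on the cell type labels, H3K4me1 at baits of naive markers was lower in primed PSCs at 2 of 5 and higher at 0, with *DPPA3* and *DPPA5* the 2 that fell, where 15.1% of all baited fragments were lower and 6.38% higher. At baits of primed markers it was higher at 1 of 10 (*FGF2*) and lower at 1, shares near those of all baited fragments, and *FGF2* was not called without either naive replicate.

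The sequences that follow are the promoter windows of 2 baited genes whose partners are described most fully. Windows from partners of the *WNT3*/*WNT9B*, *WNT10A* and *WNT5A* baits with higher H3K4me1 in primed PSCs are added, so that the DNA behind those values can be read. The promoter windows hold the 250 bases upstream of the start (RefSeq, GRCh38.p14), and the others hold 300 bases at the centre of a 500 bp tile (GRCh38, plus strand). Capitals mark CG dinucleotides. The distal windows were chosen after their values were seen, as the tile with the lowest adjusted p among the tested partner tiles of the bait. For *WNT10A* only partners over 1 Mb away were considered. Partners of the other baits were left out, among them a run of lower tiles in the *DHH* and *LMBR1L* fragment (chr12:49112501-49113500). That run averaged 0.36 and 0.44 in naive and -3.30, -2.48 and -3.73 in primed PSCs. For *WNT5A*, the tile with the largest difference in the partner of the highest-scoring interaction was added.
*WNT10A* promoter, chr2:218880602-218880851, plus strand: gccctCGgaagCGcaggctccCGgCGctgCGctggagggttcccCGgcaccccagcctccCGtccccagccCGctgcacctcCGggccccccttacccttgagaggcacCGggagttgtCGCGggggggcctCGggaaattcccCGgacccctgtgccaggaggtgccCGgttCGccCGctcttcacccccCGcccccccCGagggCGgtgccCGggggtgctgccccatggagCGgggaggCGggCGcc
*WNT5A* promoter, chr3:55487307-55487556, minus strand: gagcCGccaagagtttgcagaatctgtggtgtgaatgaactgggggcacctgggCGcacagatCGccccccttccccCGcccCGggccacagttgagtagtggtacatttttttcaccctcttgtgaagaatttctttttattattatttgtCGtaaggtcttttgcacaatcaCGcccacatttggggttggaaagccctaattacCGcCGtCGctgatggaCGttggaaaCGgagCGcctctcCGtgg
Partner of the *WNT3*/*WNT9B* bait in *NSF*, chr17:46733101-46733400: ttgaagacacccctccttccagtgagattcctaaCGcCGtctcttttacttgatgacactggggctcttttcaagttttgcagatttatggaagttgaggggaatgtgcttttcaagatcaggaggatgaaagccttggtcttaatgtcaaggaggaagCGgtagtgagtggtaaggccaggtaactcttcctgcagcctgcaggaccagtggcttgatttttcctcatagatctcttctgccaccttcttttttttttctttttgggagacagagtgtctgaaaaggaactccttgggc
Partner of the *WNT10A* bait near *PAX3*, chr2:222301601-222301900: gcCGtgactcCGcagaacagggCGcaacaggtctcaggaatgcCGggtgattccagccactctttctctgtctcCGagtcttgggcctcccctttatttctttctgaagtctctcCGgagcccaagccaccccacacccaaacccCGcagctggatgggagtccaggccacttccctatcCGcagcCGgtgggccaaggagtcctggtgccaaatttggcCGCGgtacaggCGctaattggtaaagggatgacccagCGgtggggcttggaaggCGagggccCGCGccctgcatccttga
Partner of the *WNT5A* bait in *ERC2*, farther group, chr3:55879601-55879900: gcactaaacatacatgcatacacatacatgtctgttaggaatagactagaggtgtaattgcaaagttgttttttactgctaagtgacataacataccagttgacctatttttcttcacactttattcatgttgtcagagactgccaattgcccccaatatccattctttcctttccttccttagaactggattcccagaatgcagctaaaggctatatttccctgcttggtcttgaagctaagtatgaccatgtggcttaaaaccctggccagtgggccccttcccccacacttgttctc
Partner of the *WNT5A* bait in *ERC2*, nearer group, chr3:55725101-55725400: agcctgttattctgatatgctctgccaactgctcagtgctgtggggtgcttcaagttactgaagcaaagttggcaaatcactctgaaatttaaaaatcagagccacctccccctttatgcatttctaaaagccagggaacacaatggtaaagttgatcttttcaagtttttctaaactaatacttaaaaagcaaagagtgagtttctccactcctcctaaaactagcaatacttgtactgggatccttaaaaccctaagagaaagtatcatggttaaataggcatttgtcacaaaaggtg

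The windows differed in CG content. The *WNT10A* promoter window held 24 CG dinucleotides and the window near *PAX3* held 16, whereas both windows in *ERC2* held 0 and the *NSF* window 3. Among the member promoters the count ran from 7 at the *WNT5B* start at chr12:1629231 to 44 at *WNT9A*, a number that 0.769% of the 35093 promoter windows of the table reached. The table has windows for 9 of the 10 genes, not for *WNT10B*. Both strands were searched for CTTTGAT (TCF/LEF), ACAATGG (SOX), ATGCAAAT (octamer) and the core CTCF motif. The only match in the printed windows was ACAATGG on the plus strand of the nearer *ERC2* window, from base 141, and 3.80% of 300-base windows at the centres of listed fragments on the same chromosomes held that word. The words CTTTGAT and ATGCAAAT and the CTCF motif were in 4.55%, 2.16% and 0.412% of those windows. In the upstream windows of all promoters the shares were 2.26% for CTTTGAT, 2.62% for ACAATGG, 1.63% for ATGCAAAT and 0.533% for the CTCF motif.

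The WNT genes had 35 naive and 26 primed interactions, of which 11 were the same pair of fragments in both lists. The shared pairs were 31.4% of the naive interactions (exact 95% interval 16.9% to 49.3%) and 42.3% of the primed ones (23.4% to 63.1%). These intervals, like all others given for interactions, cover counting error only, and neighbouring fragments are not independent. Neither list held an interaction between 2 of the WNT genes. None could be listed for *WNT1* with *WNT10B*, or for *WNT3* with an alternative *WNT9B* start, because these starts lie in the same fragment. *WNT9A* and *WNT6* had no listed bait, so an interaction within their pairs could be listed only from the bait of the other gene. The *WNT5A* and *WNT3*/*WNT9B* baits had at least 1.5 times as many interactions, and at least 3 more, in naive PSCs, which held for 17.6% of all baits. The *WNT5B* bait met the same rule in primed PSCs, as 19.5% of all baits did. Across all baits the median number of interactions was 3 in both lists, with quartiles of 1 and 7.

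**Figure D1:**
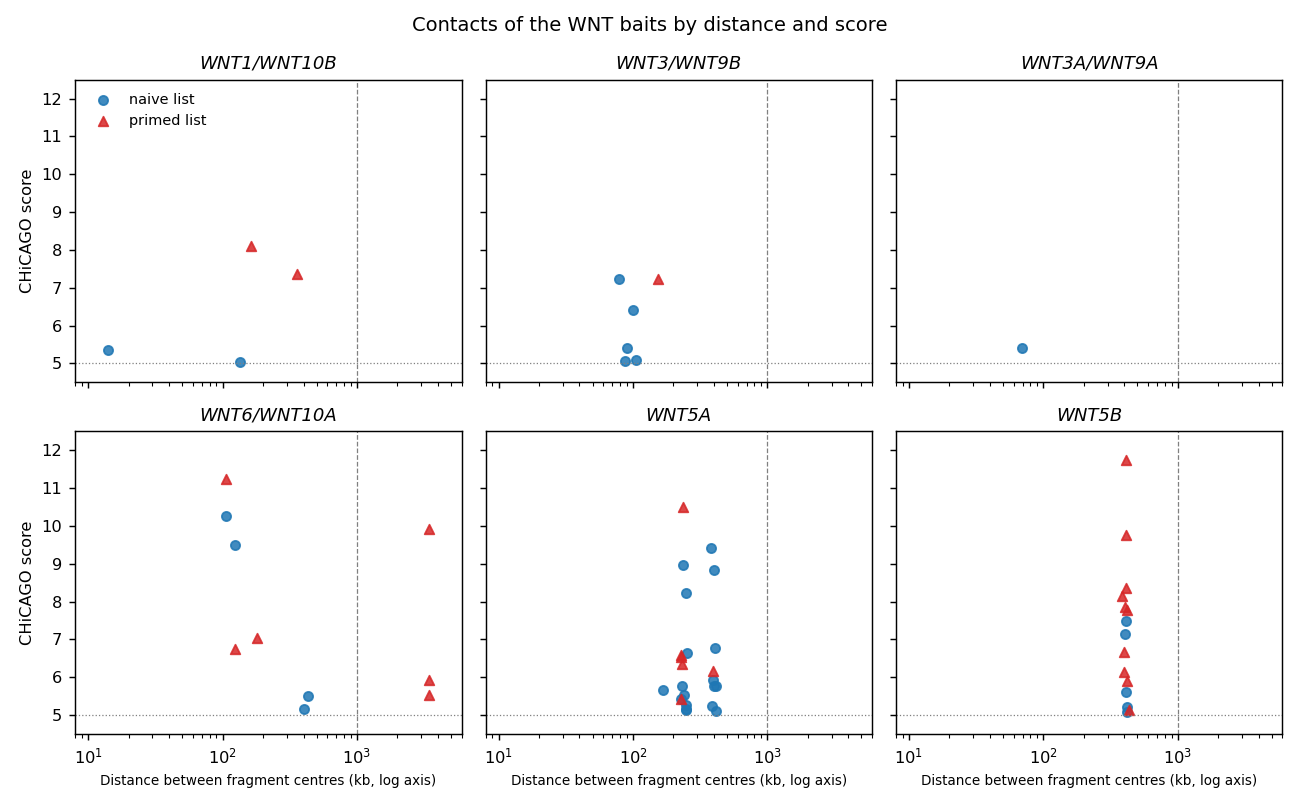
Interactions within chromosomes of the 6 WNT baits, plotted by the distance between fragment centres (kb, log axis) and the CHiCAGO score, with 1 panel a locus, circles for the naive list and triangles for the primed list. The dotted line is the lowest score listed, 5, and the dashed line is 1 Mb. Only the *WNT6*/*WNT10A* panel has points beyond 1 Mb, 3 primed interactions, and the *WNT5A* points fall in groups near 227.2 to 252.2 kb and 382.2 to 415.4 kb.

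*WNT1* and *WNT10B* shared 1 baited fragment of 10147 bp (chr12:48969774-48979920), which contains both starts, so their interactions cannot be told apart. *WNT1* patterns the midbrain and hindbrain, and *WNT10B* acts in bone and fat. In naive PSCs the fragment was joined to the promoter fragment of *ARF3*, a small GTPase of the Golgi, at 14 kb with 107 reads and a score of 5.36, and to that of *DHH* and *LMBR1L* at 135.4 kb with 13 reads and a score of 5.03. In primed PSCs its partners were the fragments of *CACNB3*, a calcium channel subunit, at 161.6 kb with 21 reads and a score of 8.10, and *C1QL4* at 358.8 kb with 10 reads and a score of 7.36. None of the 4 was in both lists, and all 4 partners were themselves baits. Across the whole series, 362 other baits had the same number of interactions as this one, 2 and 2, with none over 1 Mb.

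The *WNT3*/*WNT9B* bait spans 21295 bp (chr17:46812384-46833678) and includes the canonical *WNT3* start, an upstream *WNT3* start and an alternative *WNT9B* start, WNT9B-203, that is divergent to the upstream *WNT3* start. *WNT3* is required for primitive streak formation in the mouse embryo, and *WNT9B* for kidney tubule induction. The fragment of the canonical *WNT9B* start was not in the lists. In naive PSCs the bait was joined to 5 fragments 78.1 to 104.9 kb away, all within the body of *NSF*, which encodes a fusion ATPase of vesicle transport. Their read numbers were 20 to 32 and their scores 5.06 to 7.24. In primed PSCs it had a single interaction, with the promoter fragment of *RPRML* at 153.1 kb on the other side (11 reads, score 7.22).

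*WNT3A* and *WNT9A* lie next to each other on chromosome 1, and only *WNT3A* had a listed bait (chr1:228006103-228017853). *WNT3A* maintains the progenitors of the body axis. The bait had 1 interaction in naive PSCs, with the fragment of *ARF1* at 69.0 kb (42 reads, score 5.41), and 0 in primed PSCs. A bait with interactions in naive PSCs only was found for 15% of all baits, and one with interactions in primed PSCs only for 12%.

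The *WNT6*/*WNT10A* pair was described through *WNT10A*, a ligand of tooth, hair and skin development, whose bait is chr2:218876938-218886420. It was joined in both cell types to the fragment of *FEV* and *CRYBA2* at 105.2 kb, with 30 naive reads at a score of 10.27 and 25 primed reads at a score of 11.25. The next fragment, of *MIR375*, at 123.4 kb, had 25 naive reads at a score of 9.49 and 15 primed reads at a score of 6.74. In primed PSCs the bait also met the fragment of *IHH*, a Hedgehog ligand, at 180.3 kb (13 reads, score 7.05). In naive PSCs it met 2 fragments around *PTPRN* and *DNAJB2* at 400.7 and 432.9 kb, with 7 reads each and scores of 5.17 and 5.50.

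The primed list further joined *WNT10A* to 3 neighbouring fragments at *PAX3*, a transcription factor of neural crest and muscle, at 3409.0, 3418.1 and 3420.8 kb. They had 3, 3 and 4 reads and scores of 5.54, 5.94 and 9.91. These were the 3 interactions over 1 Mb among those of all the WNT baits, so that 1 of 6 baits had such an interaction in primed PSCs, against 9.73% of all baits, and 0 in naive PSCs, against 3.55%. None of the 3 remained with a minimum of 10 reads. The fragment of *WNT6* (chr2:218841804-218867977) was listed only as a partner, of the *IHH* bait in primed PSCs at 207.1 kb (17 reads, score 6.44). The fragment of a further *WNT10A* start, WNT10A-204, was a partner of the *FEV* and *CRYBA2* bait in primed PSCs at 89.6 kb (31 reads, score 5.51).

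*WNT5A* had the most interactions of the 10 genes, 18 naive and 6 primed ones. Its ratio was 3, with a 95% interval of 1.19 to 7.56. All 20 of its partner fragments lay in the body of *ERC2*, the neighbouring gene that encodes a scaffold protein of the presynaptic active zone. They formed a nearer group of 11 fragments, of which 9 were listed in naive and 5 in primed PSCs, and a farther group of 8, all of them in the naive list and 1 also in the primed list. The remaining partner, a bait at 166.8 kb, was naive only (36 reads, score 5.66). The highest score belonged to chr3:55724452-55726253, 236.9 kb from the *WNT5A* fragment, with 33 naive reads at a score of 8.97 and 43 primed reads at a score of 10.5. In each of the 4 shared interactions both the read number and the score were higher in primed PSCs, where reads ran from 20 to 43 against 16 to 33. Of the 14 naive-only interactions, 11 had a score under 7. The strongest of them were at 382.2 kb (23 reads, score 9.43), 403.9 kb (20 reads, score 8.84) and 248.6 kb (29 reads, score 8.22). The excess in naive PSCs depended on the threshold: primed minus naive interactions came to -12 as listed and to -3 when scores under 7 were left out. With scores under 10 left out the value was 1, and only the primed score of 10.5 remained.

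*WNT5B* showed the opposite order. Its only bait, chr12:1528761-1535428, covers alternative upstream starts, WNT5B-205 and WNT5B-210, and not the canonical one. It had 5 naive and 11 primed interactions, a ratio of 2.20 with a 95% interval of 0.764 to 6.33, and all 5 naive interactions were in the primed list. In each of the 5 the primed reads, 26 to 39, were above the naive reads, 17 to 22, and the primed score was also higher. The strongest was at 411.4 kb, with 22 naive reads at a score of 7.5 and 39 primed reads at a score of 11.75. At 408.1 kb, 38 reads and a score of 9.75 were listed in primed PSCs only. Of the 11 partners, 10 lay 384.6 to 433.2 kb away in the body of *ERC1*, the neighbouring paralog of *ERC2*. The last was on chromosome 5 (chr5:19173946-19174375) in primed PSCs, with 4 reads and a score of 15.54.

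Some similarities between loci were noticed after the values were seen and are given as descriptions. The *WNT5A* and *WNT5B* baits had all or most of their partners in an ERC gene, and the *WNT1*/*WNT10B* and *WNT3A* baits both met an ARF gene in naive PSCs. Fragments of Hedgehog ligands were met in opposite cell types, *DHH* by the *WNT1*/*WNT10B* bait in naive PSCs only and *IHH* by the *WNT10A* bait in primed PSCs only.

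Hi-C counts of 100 kb bins were set beside the mean of the bin pairs at the same distance on the chromosome that both files list. The counts are raw and come from material related to the PCHi-C libraries, so they are a second reading rather than independent samples. Between *WNT5A* and the nearer group, at 300 kb between bins, there were 360 naive and 432 primed di-tags, 2.72 and 2.81 times the mean. At 400 kb there were 176 and 211 di-tags, a ratio of 1.84 in both. At 500 kb there were 225 in each library, 3.07 times the mean in naive and 2.5 times in primed PSCs. At 200 kb, where 1 interaction was listed in naive PSCs only, there were 185 and 200 di-tags, 0.952 and 0.9 times the mean. The ratio was thus higher in naive PSCs at 200 and 500 kb, higher in primed PSCs at 300 kb and the same to 2 decimals at 400 kb, with no test.

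For *WNT5B* and *ERC1* the Hi-C counts were higher in primed PSCs. At 400 kb the library of naive PSCs had 245 di-tags, 2.89 times the mean, and that of primed PSCs 473, 4.46 times the mean. At 500 kb there were 91 and 157, or 1.39 and 1.87 times the mean. Between *WNT10A* and *PAX3* the primed library held 23 di-tags at 3400 kb and 23 at 3500 kb, 6.34 and 6.77 times the mean of all pairs at that distance, and the first of these was above 99.6% of such pairs. The naive file leaves out low pairs and listed neither. At the shorter *WNT10A* distances both libraries were below the mean, with 178 di-tags in naive and 131 in primed PSCs at 100 kb, 0.470 and 0.289 times the mean. The *WNT1*/*WNT10B* pairs were also below it, from 0.094 to 0.516 times in naive and from 0.147 to 0.442 times in primed PSCs.

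**Figure D2:**
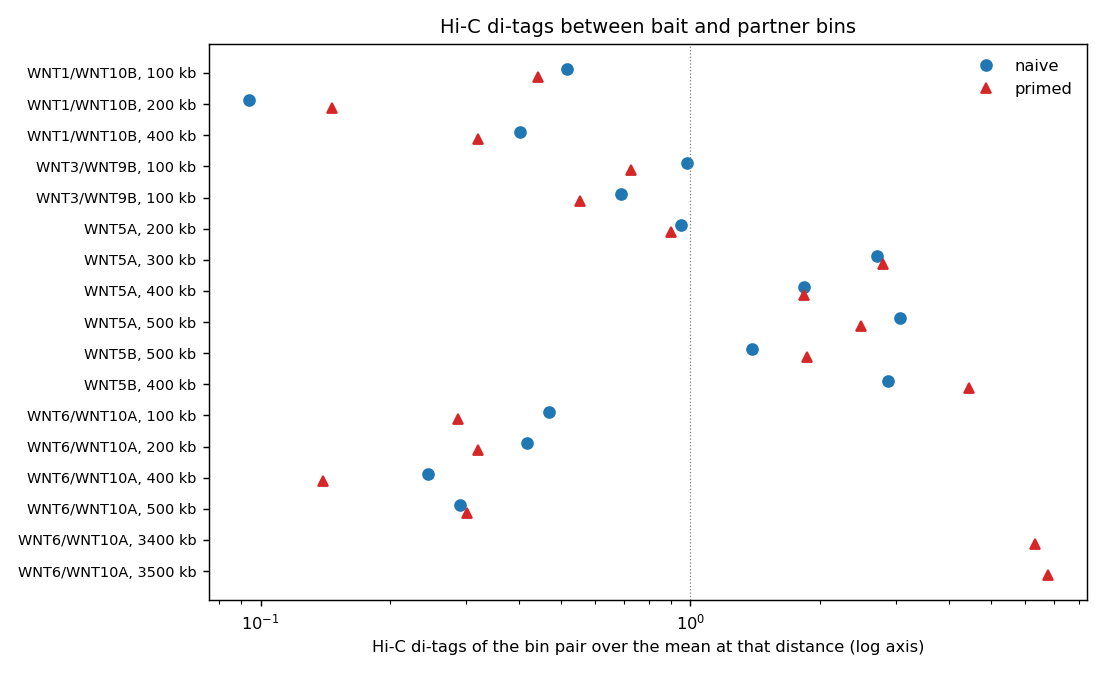
Hi-C di-tags between the 100 kb bins of each WNT bait and its partners, divided by the mean of bin pairs at the same distance (log axis), with circles for the naive and triangles for the primed library. Pairs of *WNT5A* at 300 to 500 kb, of *WNT5B* and of *WNT10A* with *PAX3* at 3400 and 3500 kb lie above 1, and the other pairs lie below it. The last 2 have no naive value because the naive file does not list them, and their mean is over all pairs of the primed file.

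H3K4me1 over the whole bait fragments did not pass the test at any of the 6 baits. Values are the mean log2 RPM, reads scaled to the size of the library, of the 500 bp tiles of a fragment, and the tests are limma on all 88413 listed fragments with Benjamini-Hochberg adjustment. Of all listed fragments 8.19% were higher and 13.2% lower in primed PSCs, and of the baited ones 6.38% were higher and 15.1% lower. At the WNT baits the primed minus naive difference ran from -0.22 to 0.46 with adjusted p-values of 0.444 to 0.973, and limma gave 0 baits with an unadjusted p under 0.05. edgeR on the recovered reads also called 0.

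In naive PSCs the *WNT5A* bait had the highest mean mark of the 6, with 0.29 and 0.09 in the naive libraries and 0.23, 0.04 and -0.36 in the primed libraries. The *WNT1*/*WNT10B* bait had -0.41 and -0.44 in naive and -0.44, -0.26 and -0.45 in primed PSCs, and the values overlapped. The *WNT3*/*WNT9B* bait had -0.45 and -0.48 in naive and -0.05, -0.07 and 0.11 in primed PSCs. Its groups did not overlap, but the difference of 0.46 ± 0.36 (SE) had an adjusted p of 0.444 in limma. *WNT10A* had -0.63 and -1.02 against -0.69, -0.32 and -0.80, and *WNT5B* had -1.38 and -1.53 against -1.27, -0.54 and -1.31. *WNT3A* had the lowest mark, -2.19 and -1.74 in naive and -2.03, -1.43 and -1.89 in primed PSCs.

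At the scale of single tiles, differences appeared at parts of these fragments. Tiles above a log2 RPM of 0 in at least 2 libraries were tested, and of all 465156 such tiles 25.9% were higher and 26.1% lower in primed PSCs. In the bait fragments 60 tiles were tested, of which 6 were higher and 1 was lower. Of the 6, 5 were adjacent tiles at the upstream *WNT3* start and the divergent WNT9B-203 start (chr17:46831001-46833500). Their mean was -2.06 and -1.75 in the naive libraries and 1.05, 0.86 and 0.62 in the primed libraries, with limma adjusted p-values of 0.000216 to 0.00655. On these means they passed the filter through the primed libraries only, the group in which they are high. A tile above 0 in all primed libraries stays tested with any library left out, so such fits are no further support for it. The sixth was a *WNT5A* tile at chr3:55490501-55491000, near an upstream start of the gene, with -0.74 and -1.75 in naive and 1.61, 0.83 and 0.88 in primed PSCs (limma adjusted p 0.00145). The single lower tile lay 0.75 kb upstream of the *WNT3A* start, and with its neighbour outside the bait it averaged 1.51 and 1.73 in naive and 0.67, 0.03 and 0.30 in primed PSCs. The lower tile was not called when either naive library was left out.

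Promoter fragments without a listed bait had 3 higher and 23 lower tiles of 86 tested, or 3.49% and 26.7%, so the share of lower tiles was near the 26.1% of all tested tiles. *WNT9A*, which acts in joint formation, accounted for 12 of the lower ones, out of 18 tested. Among these, a run of 2 adjacent tiles in an intron averaged 0.64 and 0.54 in naive and -3.22, -0.82 and -1.83 in primed PSCs. A run of 3 tiles in an intron averaged 0.49 and 0.82 against -2.48, -1.12 and -1.88. At *WNT5B* a run of 4 intronic tiles (chr12:1617501-1619500), beside the start at chr12:1617056, averaged 1.09 and 1.02 in naive and -2.25, -1.04 and -1.45 in primed PSCs. In these runs the naive libraries all lay above the primed libraries, but the runs were chosen from tiles called lower in those same libraries. Without either naive replicate, 0 of the *WNT9A* tiles and 0 of the 6 lower tiles of that *WNT5B* fragment were called. With 1 naive library, a tile marked only in naive PSCs cannot be above 0 in 2 libraries and is not tested.

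Other *WNT5B*, *WNT6* and *WNT5A* tiles were higher in primed PSCs. At WNT5B-206, a downstream start, 1 tile had 0.01 and -1.17 in naive and 1.25, 1.19 and 0.85 in primed PSCs, a difference of 1.67 ± 0.47 (SE) and a limma adjusted p of 0.00786. *WNT5B* therefore had tiles that changed in opposite directions at 2 of its starts. A tile 4.05 kb upstream of *WNT6*, a ligand of epithelial tissues, had -0.54 and -0.75 in naive and 1.38, 1.34 and 0.73 in primed PSCs (limma adjusted p 0.00342).

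**Figure D3:**
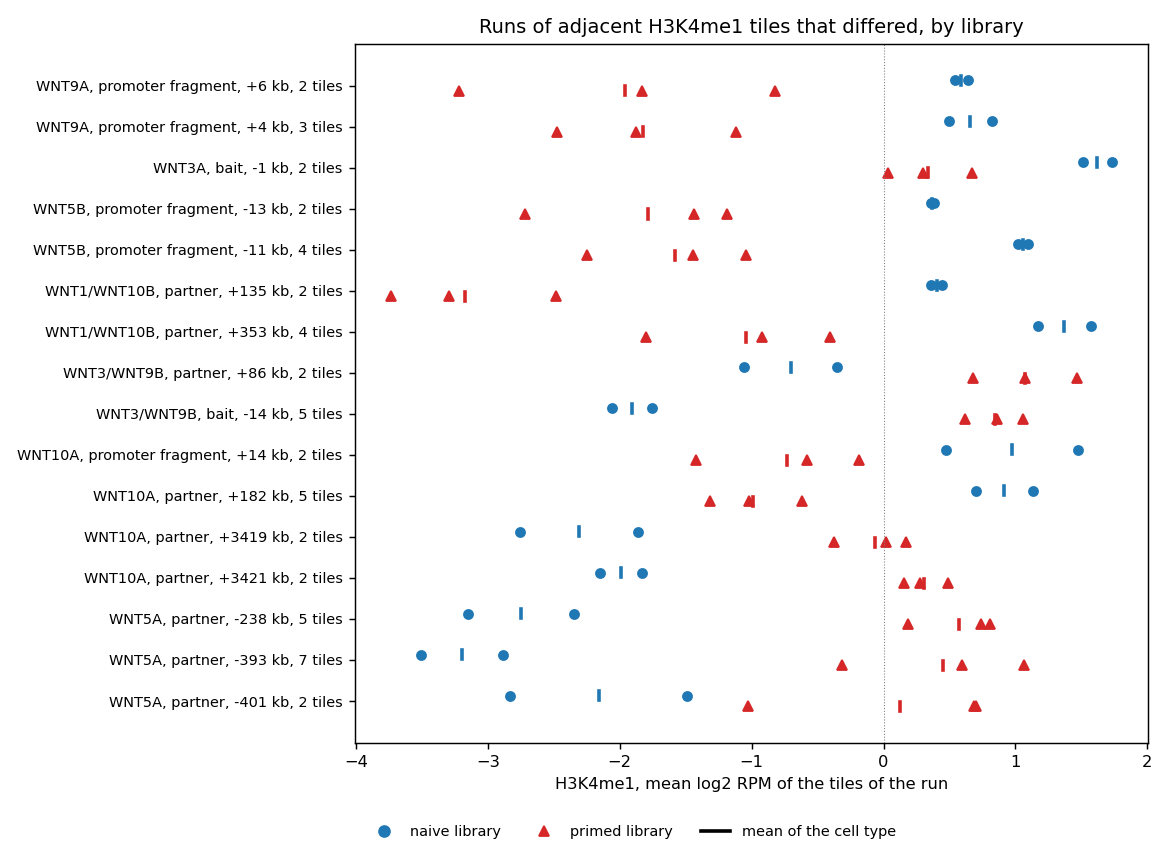
Runs of at least 2 adjacent tiles that differed in the same direction, by library, of which 16 of 17 are shown. The x axis is the mean log2 RPM of the run, circles are naive and triangles primed libraries, and bars are the means of each cell type. The distance of each run from the canonical start of the gene is negative upstream of it. Of the runs shown, 9 were lower and 7 higher in primed PSCs. Their tiles were chosen because they passed the test on these same libraries, so the separation of the cell types is not a further result.

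H3K4me1 was also compared at the partner fragments, where most of the calls fell to *WNT5A*. Of the 50 partners, 12 of which were themselves baits, 13 were higher and 3 lower in primed PSCs. Of all listed fragments without a bait 8.59% were higher and 12.8% lower, and of those with a bait 6.38% and 15.1%. The median difference was 0.26 over the partners and -0.06 over all fragments. Leaving out either naive replicate leaves 1 naive library, and over all fragments it lowered the number of calls in both directions. Without the first naive replicate, 4 partners were called higher and 0 lower. Without the second, 0 were called lower.

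*WNT5A* accounted for 9 of the 13, with 0 lower, and the median difference over its 20 partners was 1.25. The partner of its highest-scoring interaction (chr3:55724452-55726253) had -3.70 and -2.83 in the naive libraries and 0.66, 0.15 and 0.83 in the primed libraries, a difference of 3.81 ± 0.39 (SE). It held 8 and 2 naive reads against 57, 37 and 197 primed reads, so the size of the difference is uncertain. It kept its call under each of the 11 alternatives of the fragment fit. In the farther group, the partner at chr3:55887377-55889548 had -1.49 and -2.43 in naive and 0.41, -0.80 and 0.14 in primed PSCs, a difference of 1.88 ± 0.42 (SE) that was not called without the second naive replicate. A run of 7 tiles in that group (chr3:55879001-55882500) averaged -3.50 and -2.88 in naive and 1.07, -0.31 and 0.59 in primed PSCs. In the second naive library a fragment without reads has -2.91, so that value is near the floor. The called partners at chr3:55716021-55717076 and chr3:55903125-55904565 each held 3 and 0 naive reads. At *WNT5A* the naive libraries lay below the primed ones in these regions, which were picked by calls on the same libraries. Of the 20 interactions, 14 were listed in naive PSCs only. Of those 14 partners, 5 were higher and 0 lower in primed PSCs. Among all unbaited partners of naive-only interactions, 6.45% were higher and 17.3% lower, and 1 of the 14, at 166.8 kb, was a bait. Without the first naive replicate 2 *WNT5A* partners were called. With fragments limited to those with a tile above 0, or reads thinned to 1 depth, 5 were called.

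**Figure D4:**
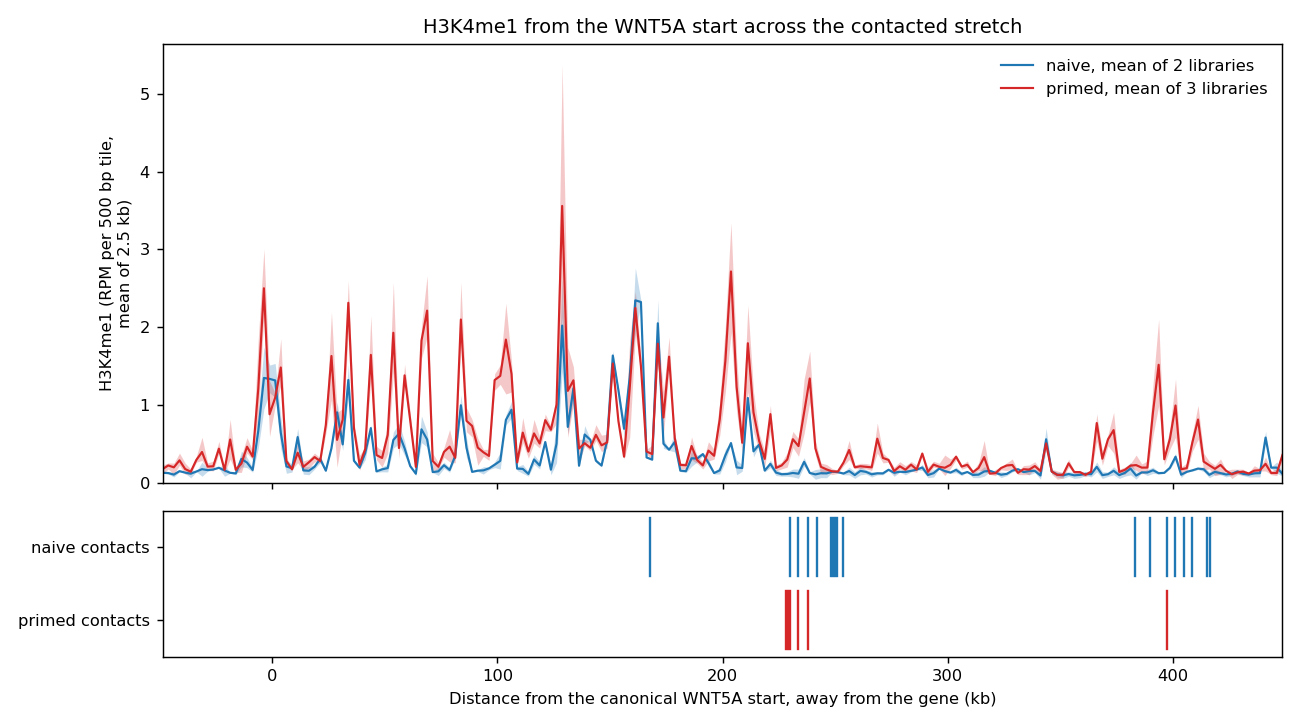
H3K4me1 from the *WNT5A* start into *ERC2* (upper panel, RPM per 500 bp tile averaged over 2.5 kb, with lines for the mean of 2 naive or 3 primed libraries and shading from the lowest to the highest library) and the centres of the partner fragments (lower panel). The primed line is above the naive line around 238.05 kb, where both lists have an interaction, and around 397.24 kb, where naive interactions are denser than primed ones.

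At the other loci, 2 *NSF* partners of the *WNT3*/*WNT9B* bait were higher in primed PSCs although both were naive-only interactions. The partner at chr17:46736157-46736746 had -3.45 and -2.75 in naive and -0.34, -0.40 and -0.49 in primed PSCs. However, this 590 bp fragment took its value from 1 tile, which held 1 to 19 reads per library. That tile was not above 0 in 2 libraries and so was not among the tested tiles. The partner at chr17:46732701-46733939 had -1.32 and -1.20 in naive and 1.08, 0.13 and 0.60 in primed PSCs. Their differences were 2.69 ± 0.37 and 1.87 ± 0.38 (SE), with limma adjusted p-values of 2.9e-05 and 0.00131. The second was not called without the first naive replicate.

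Of the 3 partners of *WNT10A* at *PAX3*, 2 were higher in primed PSCs. The fragment upstream of *PAX3* at chr2:222299041-222300551 had -2.06 and -2.42 in naive and 0.26, -0.21 and -0.32 in primed PSCs, and its neighbour at chr2:222300552-222304478 had -2.53 and -1.57 against -0.13, -0.71 and -0.42, a difference that was not called without the first naive replicate. The intronic *PAX3* fragment at chr2:222290326-222291028 had 0.98 and 0.57 against 0.44, 0.60 and 0.44, a difference of -0.28 ± 0.37 (SE) and a limma adjusted p of 0.711. Here the higher mark and the interaction were both in primed PSCs.

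The 3 lower partners were all in primed-only interactions. The *IHH* fragment had 0.79 and 0.54 in naive and -0.54, -0.85 and -1.23 in primed PSCs, a difference of -1.54 ± 0.37 (SE). The *C1QL4* fragment, a partner of *WNT1*/*WNT10B* that also overlaps *TROAP*, had 0.64 and 0.56 against -0.74, -0.33 and -0.59. Its difference was -1.15 ± 0.36 (SE), and its run of 4 lower tiles (chr12:49330001-49332000) lay in *TROAP*, outside the body of *C1QL4*. All 3 lost the call without either naive replicate, and *C1QL4* and the *WNT5B* partner also without the third primed one. The *WNT5B* partner at chr12:1134138-1135304 had -1.40 and -0.45 against -1.81, -2.03 and -3.20. It was the only one of the 11 *WNT5B* partners that passed the test, and none of the 68 tiles in *WNT5B* partners rose above 0 in 2 libraries. The stronger *WNT5B* interactions of primed PSCs thus met fragments with little H3K4me1 in either cell type.

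**Figure D5:**
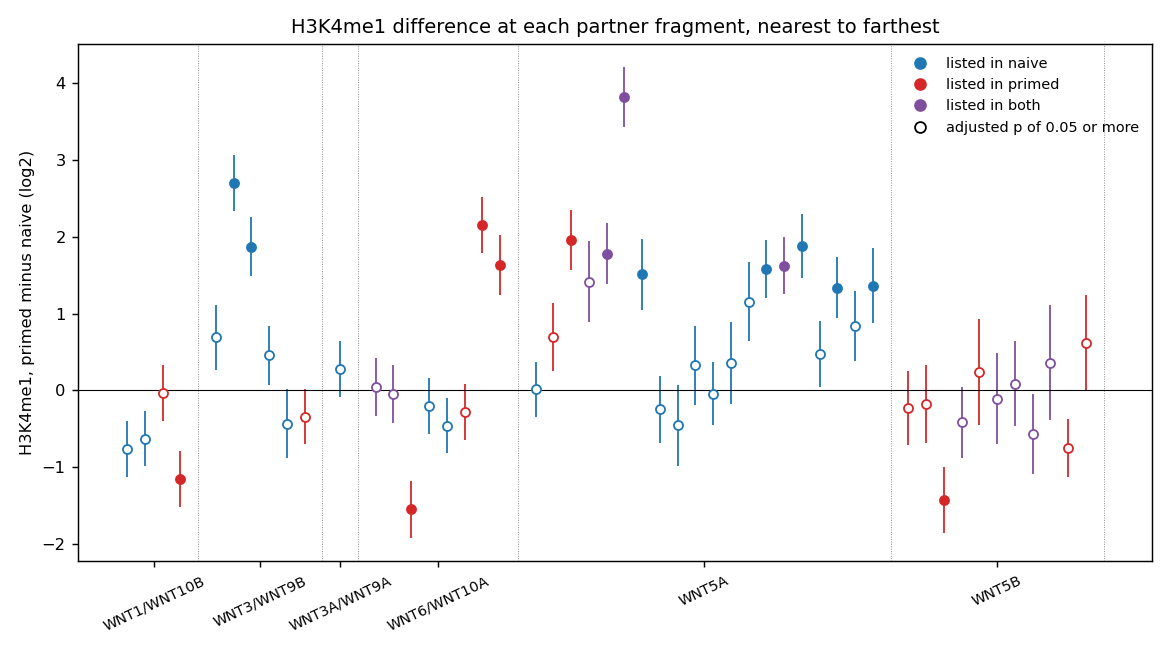
H3K4me1 difference (primed minus naive, log2, with SE bars) at each partner fragment, ordered by distance within each locus and coloured by the list that held the interaction. Filled points passed an adjusted p of 0.05. The filled points of *WNT5A* are all above 0, while the *WNT5B* points lie around 0 with 1 filled point at -1.42.

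The other WNT pathway genes were described from 8 lists of 69 baited fragments, of which 5 were higher and 4 lower in primed PSCs, or 7.25% and 5.80%, against 6.38% and 15.1% of all baited fragments. The median difference was -0.04 over these baits and -0.17 over all baits. None of the 8 baits of the other WNT ligand genes passed the test. Among 11 receptor baits, *FZD2*, a Frizzled receptor, had -2.51 and -1.48 in naive and 0.55, -0.14 and 0.08 in primed PSCs, and *ROR1*, a receptor of *WNT5A*, had -0.81 and -1.67 against 0.71, 0.23 and 0.26. Both passed the test, and 0 receptors were lower. *FZD2* was not called without the first naive replicate and *ROR1* not without the second.

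*PORCN*, the enzyme that attaches the lipid to WNT proteins before secretion, was lower in primed PSCs at both of its baits. One bait had -0.33 and -0.36 in naive and -2.77, -2.59 and -2.83 in primed PSCs, a difference of -2.39 ± 0.35 (SE), and the other differed by -1.74 ± 0.39 (SE). *SFRP1*, a secreted WNT inhibitor, was higher by 1.5 ± 0.37 (SE), and the R-spondin receptor gene *LGR6* had a difference of -1.08 ± 0.37 (SE) and was lower. Within the cell, 1 of 2 *CSNK1A1* baits was lower (-1.68) and 1 of 2 *TCF7L1* baits higher (1.21). The other *TCF7L1* bait had a difference of -0.82 and did not pass the test. *TBXT*, a mesodermal target of canonical signalling, was higher by 1.17 ± 0.37 (SE). *SFRP1*, *LGR6*, *TCF7L1*, *TBXT* and the second *PORCN* bait were not called without either naive replicate, and *CSNK1A1* not without the first. *LGR6* and *TBXT* were also lost without the first or the third primed replicate. Interaction numbers of the lists went both ways. The 8 baits of other WNT ligands had 57 naive and 29 primed interactions, and the 9 baits of the nuclear factors 122 and 192. Among the other ligands, *WNT4*, with 19 and 7, and *WNT7A*, with 19 and 9, had a naive excess like that of *WNT5A*, with 18 and 6. *WNT11*, with 2 and 4, and *WNT7B*, with 0 and 1, went the other way. The rise at the nuclear factors came mostly from *TCF7L2*, with 16 naive and 72 primed, and *BCL9*, with 32 and 55. *LEF1*, with 25 and 12, and 1 *TCF7L1* bait, with 21 and 15, went the other way.

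The interaction numbers of most WNT baits were common ones, counting interactions within chromosomes only, which were 5 naive and 10 primed for *WNT5B*. Besides the 362 baits that matched *WNT1*/*WNT10B*, 79 matched *WNT3*/*WNT9B*, 1207 matched *WNT3A*, 28 matched *WNT5B* and 4 matched *WNT5A*. No other bait had the numbers of *WNT10A*, and *BCHE*, an unnamed bait on chromosome 1 and *NXPH1* were nearest, at distances of 0.241, 0.241 and 0.297 in standardised log2 interaction numbers of the 4 counts compared.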

How the data were processed

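PCHi-C, Hi-C and H3K4me1 CUT&RUN data of naive and primed PSCs were used, grouped by their labels. ChIP-seq libraries were not used here. The PCHi-C reads were aligned to GRCh38 and filtered with HiCUP by the authors, who pooled 2 replicates of each cell type in CHiCAGO and listed the pairs scoring 5 or more. Beside the deposited CHiCAGO score stands a pooled, rounded read number, which is not a raw read count. Hi-C data were deposited by the authors as raw counts of di-tags per pair of 100 kb bins from 1 library per cell type, and the naive file leaves out low pairs within chromosomes. CUT&RUN reads were trimmed by the authors with Trim Galore (0.5.0 in the submitters' processing notes), mapped with Bowtie2 (2.3.2) and deposited as log2 RPM per 500 bp tile, where a tile without reads is set to 0.9 reads. In the tiles with reads, 100% of values in each library came within 0.05 reads of a whole number, which gave the depth.

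Genes were assigned to fragments from GENCODE release 44. Pairs listed from both baits were merged, and interactions over 1 Mb were called long. Interaction lists and Hi-C counts were compared without a test, each being 1 per cell type. Fragment means and tiles were fitted with limma 3.58.1 (lmFit, eBayes with trend, R 4.3.3), with Benjamini-Hochberg adjustment over all features fitted and a threshold of 0.05, after tests on simulated data. Alternatives were quantile normalization, the log2 of mean RPM plus 0.1, a filter on low values or none, a replicate block, leaving out each library, edgeR 4.0.16 on recovered reads, and other score, read, list-size and distance limits. Thinning of reads to 1 depth was added after seeing the data. The members and lists were chosen with earlier results of these data known. Named genes were the 10 members, genes of long, interchromosomal or top-scoring partners, list genes whose bait passed the threshold (at most 5 a list), and the 3 baits nearest in interaction numbers. Other partner genes were named after their values were seen. One primed marker gene and one region are not reported here.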

Additional observations from a re-analysis of the deposited data

How the results depend on the processing

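The 6 baits stayed without a call under each fit tried. Partners higher in primed PSCs numbered 13, and 8 with fragments that have a tile above 0, 7 with thinned reads, and 4 to 13 with 1 library left out. Partners lower numbered 3, and 1 after quantile normalization, 0 with thinned reads and 0 to 3 with 1 library left out. *WNT5A* partners higher numbered 9, and 5 with that filter, 5 with thinned reads and 2 to 9 with 1 library left out, with 0 lower throughout. Pathway baits higher numbered 5, and 9 with edgeR, 3 with thinned reads and 1 to 6 with 1 library left out. Pathway baits lower numbered 4, and 8 with the filter, 1 with thinned reads and 1 to 7 with 1 library left out. Bait tiles higher numbered 6, with 11 after quantile normalization and 5 to 7 with 1 library left out, and lower 1, with 2 without a filter and 0 to 2 with 1 library left out. In promoter fragments without a listed bait 3 tiles were higher, with 6 without a filter, 5 after quantile normalization and 2 to 4 with 1 library left out, and 23 lower, with 0 to 29. Partner tiles higher numbered 24, with 10 to 23, and lower 18, with 0 to 23. Lower tiles overall fell from 121251 to 2795 without naive replicate 1 and 4575 without naive replicate 2, where a tile marked only in naive PSCs could not pass the filter. Of 121 partner tiles tested in the main fit, 19.8% were higher and 14.9% lower, against 25.9% and 26.1% of all tested tiles. *WNT5A* partner tiles higher numbered 14 of 18 tested, or 77.8%, with 6 without the first or the third primed replicate and 25 without a filter. Over all fragments 7243 were higher and 11658 lower, against 10161 and 10175 with edgeR and 8363 and 9495 after quantile normalization.

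Replicate numbers were shared by 2 naive and 2 primed libraries, whose same-numbered deviations correlated at 0.069 and 0.178, so they are taken to share only a number. With the replicate number as a block, 15 partners were higher and 1 lower, 11 *WNT5A* partners were higher, 3 pathway baits were higher, 6 bait tiles were higher, 15 tiles of promoter fragments without a listed bait were lower and 11 partner tiles were lower.

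Naive interactions numbered 35, with 9 at a score of at least 7 and 1 at 10, and primed ones 26, with 14 and 4. Primed interactions over 1 Mb numbered 3, with 1 at a score of at least 7, 0 at 10 and 0 with at least 10 reads. The share of naive interactions also in primed PSCs, 31.4%, was 54.3% when ends within 10 kb counted as shared. At a score of at least 10 it was 100%, with only 1 naive interaction left. Primed minus naive interactions of *WNT5A* were -12, then -3 at a score of at least 7 and 1 at 10. That reversal rests on 1 shared interaction, with scores of 8.97 in naive and 10.5 in primed PSCs. Those of *WNT5B* were 6, then 2 at 10. The cause of these changes was not tested. Baits chosen by their first listed name were not run, since the lists hold no names. Depth limits fragments of few reads, and a rise from 1 or 2 reads is uncertain in size.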

Other observations

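Higher H3K4me1 in primed PSCs around *WNT5A* was not limited to the partner fragments. In a 2.5 kb bin 203.75 kb from the start, which no listed interaction of *WNT5A* reached, the mean RPM per tile was 0.514 and 0.504 in the naive libraries and 3.34, 1.93 and 2.88 in the primed libraries. At 68.75 kb it was 0.459 and 0.652 in naive and 2.10, 1.88 and 2.66 in primed PSCs. At 161.25 kb, beside the baited partner at 166.8 kb, the groups overlapped, with 2.76 and 1.93 in naive and 2.46, 1.9 and 2.38 in primed PSCs. The next bin, at 163.75 kb, was higher in the naive libraries, with 2.30 and 2.34 against 1.60, 1.47 and 1.41, and so were those at 153.75 kb, with 1.16 and 1.22 against 0.791, 0.811 and 0.767, and 156.25 kb, with 0.588 and 0.798 against 0.384, 0.302 and 0.316. These bins were picked after the profile was seen and were not tested.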
